A study of Mus musculus with 2 samples.

Results

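The collagens described here were the 44 of 31053 genes in the count tables whose symbol was Col, a type number, the letter a and a chain number. They comprised 11 fibrillar collagens, 8 basement membrane collagens and 25 other collagens. Their transcripts were counted in cells of the intestinal lamina propria from mice prone to adenomas, with 2 droplet libraries in all. One library came from ApcMin mice (ApcMin/+;Lef1 +/+) and 1 from VApcMinL mice (ApcMin/+;Lef1 fl/fl; Villin-Cre). Both genotypes carried the ApcMin allele on a C57BL/6 background. The floxed Lef1 line of the study, carried by VApcMinL only, was of mixed strain origin before its backcrossing to C57BL/6. For both genotypes the labels and the isolation protocol give an age of 11 weeks. The results text of the study gives another age for these mice, so the sources differ. The Villin promoter drives Cre in the intestinal epithelium, not in the stroma where most of the collagen transcripts lay. Cells freed with EDTA and Liberase TL were sorted as negative for DAPI, Ter119, Epcam and CD45, a gate meant to remove dead, red blood, epithelial and immune cells. The number of mice behind each library was not given in the sources used here, and with 1 library per genotype no difference between genotypes can be told apart from a difference between the libraries.

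Collagen chains wind around each other into a triple helix and are built into the matrix outside the cell. Fibrillar collagens such as types I, III and V give the stroma its fibres, type IV chains form the sheet-like network of the basement membrane under epithelia and around vessels, muscle and glia, and types XV and XVIII anchor in that zone. The remaining members coat fibrils (types XII, XIV, XVI), form beaded filaments (type VI) or hexagonal nets (type VIII), anchor epithelia (type VII) or span the cell membrane (types XIII, XXIII, XXV). In the gut wall fibroblasts are known as the main source of interstitial collagen, while endothelial and muscle cells make basement membrane around themselves.

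Several collagen genes lie head to head, and the promoters of the pairs that the results below turn on are shown for that reason. The sequences came from RefSeq (GRCm38.p6), where 35 of the 44 members had an entry with 38 windows of 300 bases, from 250 bases before to 50 after the transcription start. Capitals mark GGGCGG (the GC box), CCAAT (the CCAAT box) and TATAAA (the TATA box), searched on both strands, and matches on the opposite strand are capitalised as they read here. Col4a1 (chr8:11312777-11313076, minus strand) and Col4a2 (chr8:11312555-11312854, plus strand) encode the chains of the common type IV network, and their windows share 78 bases.
Col4a1: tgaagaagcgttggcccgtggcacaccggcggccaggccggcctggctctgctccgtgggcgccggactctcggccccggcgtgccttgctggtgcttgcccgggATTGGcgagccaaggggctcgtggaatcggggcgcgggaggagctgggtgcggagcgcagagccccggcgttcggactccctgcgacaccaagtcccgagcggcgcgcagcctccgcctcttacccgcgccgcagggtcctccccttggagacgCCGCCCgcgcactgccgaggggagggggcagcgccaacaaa
Col4a2: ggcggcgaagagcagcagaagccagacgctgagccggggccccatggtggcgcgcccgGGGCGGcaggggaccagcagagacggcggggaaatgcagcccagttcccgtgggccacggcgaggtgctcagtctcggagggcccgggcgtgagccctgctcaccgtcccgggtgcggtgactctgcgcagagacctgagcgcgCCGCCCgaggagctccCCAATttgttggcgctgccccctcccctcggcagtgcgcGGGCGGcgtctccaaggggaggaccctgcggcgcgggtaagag
Col4a6 (chrX:141474027-141474326, minus strand) and Col4a5 (chrX:141475169-141475468, plus strand) encode chains of a second type IV network, and their starts are 1343 bases apart.
Col4a5: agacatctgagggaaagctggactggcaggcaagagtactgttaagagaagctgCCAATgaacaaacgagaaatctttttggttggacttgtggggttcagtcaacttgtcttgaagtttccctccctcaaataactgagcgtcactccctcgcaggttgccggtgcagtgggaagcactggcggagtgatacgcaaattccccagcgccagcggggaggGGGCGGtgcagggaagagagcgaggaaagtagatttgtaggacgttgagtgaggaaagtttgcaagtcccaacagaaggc
Col4a6: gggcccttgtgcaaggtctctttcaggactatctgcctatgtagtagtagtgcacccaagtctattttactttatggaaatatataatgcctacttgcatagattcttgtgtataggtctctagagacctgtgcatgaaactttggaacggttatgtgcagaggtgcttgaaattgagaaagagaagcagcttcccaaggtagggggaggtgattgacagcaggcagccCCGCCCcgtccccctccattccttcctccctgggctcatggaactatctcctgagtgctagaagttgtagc
The windows of Col4a1 and Col4a2 were 74.0% and 73.7% G or C, and those of Col4a5 and Col4a6 were 52.7% and 48.3%. GGGCGG was present in 23 of the 38 collagen windows (60.5%) and in 35.7% of all 32851 promoter windows. CCAAT was present in 13 collagen windows (34.2%) and in 37.4% of all windows, and TATAAA in 5 (13.2%) and in 13.6%. A match describes the letters only, and a window without a match says nothing of a factor.

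The libraries held 93203061 (ApcMin) and 101609269 (VApcMinL) unique molecular identifiers (UMIs, which count single transcript molecules at their 3′ end). Barcodes with at least 3000 UMIs and at most 20% mitochondrial UMIs were used as cells, 6599 in ApcMin and 6569 in VApcMinL, with medians of 10849 and 9111 UMIs. The final data set of the study held fewer cells in each library, so the cell numbers here are not those of the study. The mitochondrial limit removed 75 and 531 barcodes, and 18 barcode sequences occurred in both libraries. A 3′ count takes 1 tag from each molecule, so levels were not divided by gene length, and they are given as CPM, the UMIs of a gene over all UMIs of the class scaled to a common total, with exact 95% Poisson intervals that cover counting error only. Lef1, whose internal deletion a 3′ tag does not check, had 22 UMIs in 4 of 48 epithelial-like cells of ApcMin (7.57 CPM) and 29 UMIs in 10 of 347 in VApcMinL (1.94 CPM), with 3 and 11 UMIs in fibroblast-like cells. Despite the gate, 661 and 355 B-like, 474 and 542 plasma-like, 1366 and 364 erythroid-like and 48 and 347 epithelial-like cells were present. Droplets without a cell held 3614552 and 5158368 UMIs, of which 0.414% and 0.451% were collagen, a measure of the free RNA in each suspension.

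Collagen transcripts were almost all stromal. The 44 genes gave 962709 UMIs in ApcMin and 827195 in VApcMinL, and 92.6% and 91.0% of them lay in fibroblast-like cells, which numbered 3146 and 3465. Fibrillar collagens made up 67.2% and 65.2% of collagen UMIs, basement membrane collagens 11.6% and 13.5%, and the other collagens 21.3% and 21.4%. Col3a1, the chain of type III collagen, alone gave 29.0% and 26.4%, Col1a2 19.0% and 18.5%, and Col1a1 12.9% and 14.6%, the latter pair being the chains of type I collagen. Of the 44 members, 41 had at least 20 UMIs over both libraries and 30 had at least 200. The 11 members between these limits were Col9a1, Col9a2, Col9a3, Col11a1, Col11a2, Col17a1, Col22a1, Col24a1, Col25a1, Col26a1 and Col28a1. Cartilage Col2a1 (11 UMIs), Col10a1 (3 UMIs) and Col19a1 (2 UMIs) were near the detection limit.

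Cell classes were set by marker genes after clustering without any collagen gene. In fibroblast-like cells collagens were 2.04% of all UMIs in ApcMin and 1.93% in VApcMinL, and fibrillar chains 1.38% and 1.30%. The smooth muscle- or pericyte-like cells (70 and 143 cells) followed with 1.71% and 1.12%. Among the clusters that no marker list named, one led by Kif14 and Ccr7 (48 and 23 cells, each with a Pdgfra UMI, 45 and 23 of them also with a UMI of the B cell gene Cd79a, and with the B cell genes Ms4a1 and Ighd beside the fibroblast gene Pi16 among its leading genes) held 1.54% and 1.22%, above the smooth muscle- or pericyte-like class in VApcMinL, and one led by Scg2 and Thbs2 (172 and 141 cells) held 1.06% and 0.849%. Enteric glia-like cells (30 and 172) held 0.750% and 0.497%, blood endothelial-like cells (125 and 485) 0.672% and 0.418%, and lymphatic endothelial-like cells (38 and 175) 0.40% and 0.296%. B-like cells, which should lack collagens, held 0.0223% and 0.0427%, and plasma-like cells 0.0208% and 0.0367%. Apart from the Kif14 cluster, the order of the populations from fibroblast-like to lymphatic endothelial-like cells was the same in both libraries, and their make-up differed. Basement membrane collagens were 0.315% and 0.283% of UMIs in blood endothelial-like cells against 0.231% and 0.234% in fibroblast-like cells, while fibrillar chains were 0.263% and 0.0805% in blood endothelial-like cells.

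**Figure D1:**
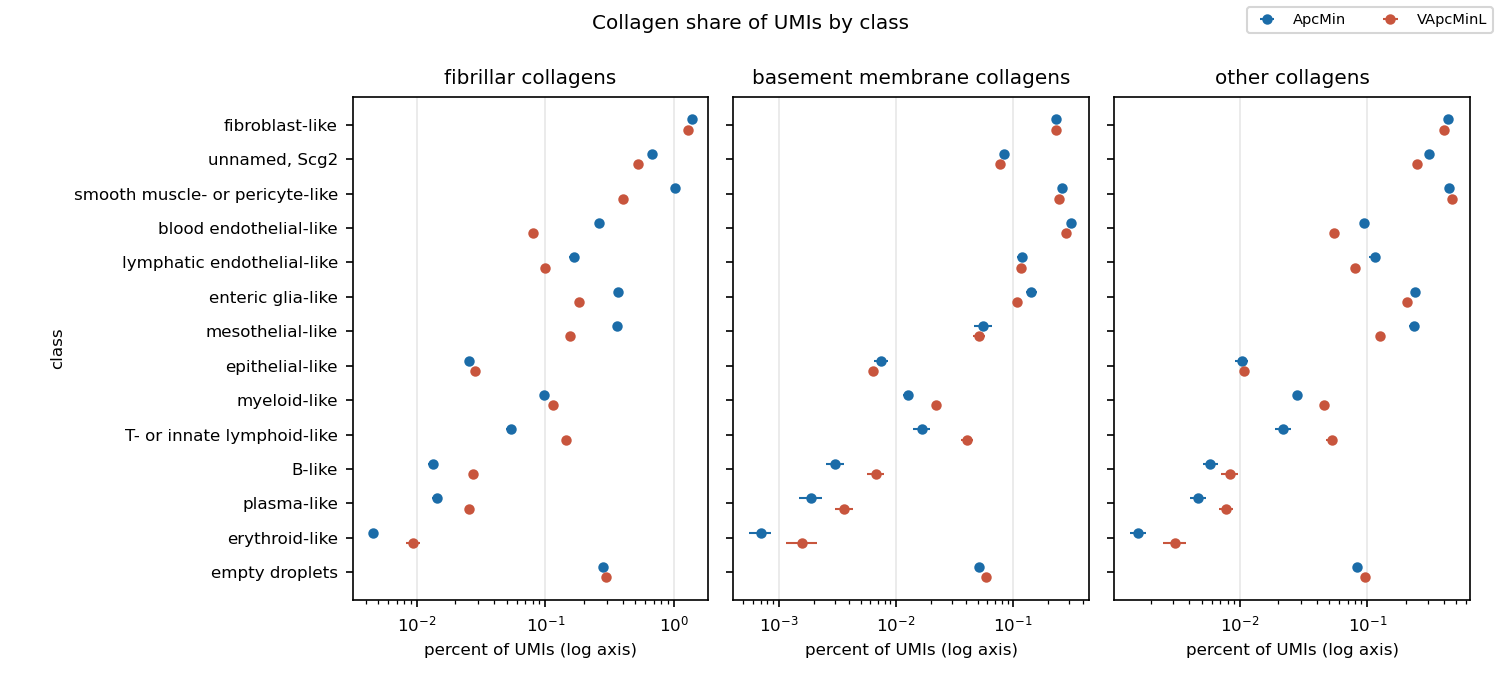
Percent of all UMIs (horizontal log axis, bars are exact 95% intervals of counting error) from fibrillar, basement membrane and other collagens in each class and in empty droplets, with 1 point for each library. Fibroblast-like cells lead the fibrillar panel at 1.38% and 1.30%, and blood endothelial-like cells the basement membrane panel at 0.315% and 0.283%.

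Per cell, the median fibroblast-like cell spent 1.79% (ApcMin) and 1.60% (VApcMinL) of its UMIs on collagens and had UMIs of 16 and 15 collagen genes. The median blood endothelial-like cell had 4 collagen genes in both libraries and 0.392% and 0.301% of UMIs, and the median enteric glia-like cell 12 and 11 genes and 0.412% and 0.449%. In B-like cells 42.2% and 38.6% of barcodes had no collagen UMI.

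Of the 30 members with at least 200 UMIs, 24 had the same highest class in both libraries among the named classes, with both unnamed clusters left out. Of these, 9 were highest in fibroblast-like cells, 6 in smooth muscle- or pericyte-like cells, 3 in blood endothelial-like cells, 3 in enteric glia-like cells, 2 in mesothelial-like cells and 1 in lymphatic endothelial-like cells. The interval of the highest class lay apart from that of the next class in both libraries for 17 of them. The other 6 of the 30, with different highest classes in the 2 libraries, were Col5a2, Col5a3, Col7a1, Col12a1, Col15a1 and Col18a1. The Scg2 cluster lay above the highest named class in both libraries for Col6a3 (1116 and 718 CPM against 719 and 509 CPM in fibroblast-like cells), Col7a1 and Col8a2. In fibroblast-like cells those with intervals apart from the next named class were Col3a1, Col1a2, Col1a1, Col6a3, Col14a1 and Col8a1, with Col3a1 at 5995 CPM (5972 to 6018) in ApcMin and 5289 CPM (5266 to 5312) in VApcMinL, Col1a2 at 3902 and 3678, and Col1a1 at 2659 and 2912. Col3a1 had a UMI in 3146 of 3146 (ApcMin) and 3453 of 3465 (VApcMinL, 99.7%) fibroblast-like cells, against 20.3% and 25.4% of B-like cells, whose median depths were 4870 and 4619 UMIs against 13350 and 10731. After thinning every cell to 3000 UMIs these shares were 99.7% and 98.1% against 11.8% and 19.7% of B-like cells, a class that should lack the gene. Over 8 other filters and clusterings, run on members with at least 200 UMIs in the library, the same highest class in both libraries was kept by Col13a1 and Col4a2 in blood endothelial-, Col23a1 in lymphatic endothelial-, Col16a1 and Col27a1 in enteric glia- and Col14a1 in fibroblast-like cells. Col20a1, with 157 UMIs in ApcMin, was compared in VApcMinL only and kept its class there. At 1000 UMIs Col1a2 was highest in smooth muscle- or pericyte-like cells in both libraries, Col3a1 and Col1a1 in VApcMinL and Col8a1 in ApcMin. Without integration Col1a1 and Col1a2 were highest there in both libraries and Col8a1 in ApcMin, and with each barcode classed by its own markers Col6a3 was highest there in both.

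**Figure D2:**
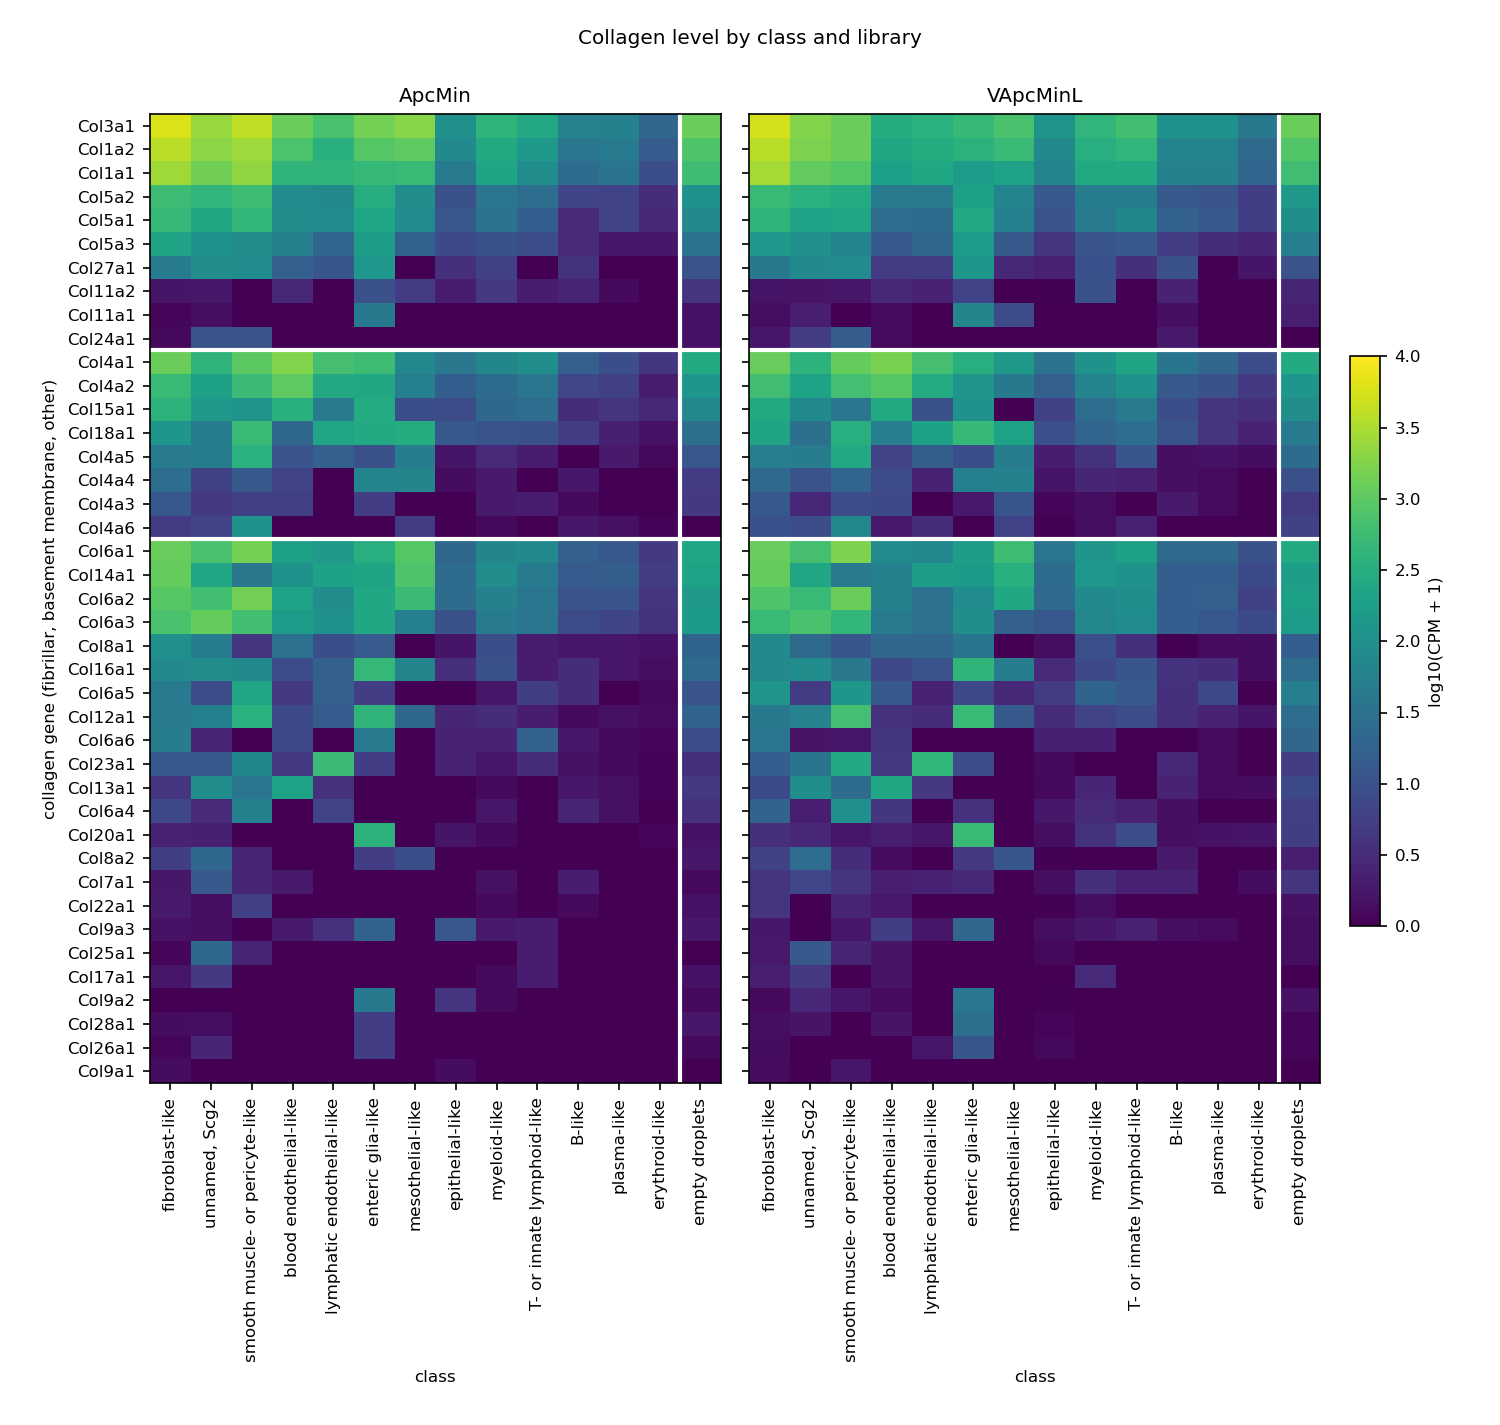
Level (colour, log10 of CPM plus 1) of the 41 collagens with at least 20 UMIs (rows, by group) in each class and in empty droplets (columns), for ApcMin and VApcMinL. Col3a1, Col1a2 and Col1a1 are brightest in fibroblast-like cells, while Col13a1, Col23a1 and Col20a1 stand out in blood endothelial-, lymphatic endothelial- and enteric glia-like cells.

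Blood endothelial-like cells (median 6075 and 5079 UMIs) were the class in which basement membrane collagens took their largest share of UMIs. Col4a1 was at 1752 CPM (1673 to 1833) in ApcMin and 1553 CPM (1511 to 1596) in VApcMinL, above 1208 and 1171 CPM in fibroblast-like cells, and Col4a2 was at 1011 and 926. Col4a1 had a UMI in 98.4% (94.3 to 99.8%) and 96.3% (94.2 to 97.8%) of them, against 4.54% and 6.48% of B-like cells. Both libraries thus gave the same order for the type IV pair, although with each barcode classed by its own markers Col4a1 was highest in pancreatic acinar-like cells in VApcMinL. Col15a1, of the vascular basement membrane zone, was at 343 and 277 CPM. Col13a1, a membrane-spanning collagen, was highest in this class as well, with 210 CPM (183 to 240) and 251 CPM (234 to 269). It had a UMI in 63.2% and 60.4% of these cells (48.8% and 44.9% thinned), against 3.02% and 5.63% of fibroblast-like and 0.15% and 0.85% of B-like cells.

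Lymphatic endothelial-like cells were the highest named class of Col23a1, another membrane-spanning collagen, at 541 CPM (468 to 621) in ApcMin and 452 CPM (417 to 489) in VApcMinL. Smooth muscle- or pericyte-like cells came next, at 66.4 CPM (47.9 to 89.8) in ApcMin and 258 CPM (231 to 287) in VApcMinL. Col23a1 had a UMI in 84.2% (68.7 to 94.0%) and 81.1% (74.5 to 86.6%) of these cells and in 68.4% and 61.7% after thinning, against 12.9% and 13.7% of fibroblast-like and 0.30% and 0.85% of B-like cells. Their type IV chains were lower than in blood endothelial-like cells, with Col4a1 at 659 and 671 CPM and Col4a2 at 255 and 283 CPM. Col18a1, the precursor of endostatin, was at 226 and 194 CPM. The endothelial classes therefore differed from each other in both libraries by Col13a1, Col23a1 and the level of Col4a1.

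Enteric glia-like cells were the highest class of several minor collagens. Col20a1 was at 371 CPM (296 to 460) in ApcMin and 492 CPM (451 to 535) in VApcMinL, with a UMI in 80.0% and 72.7% of cells, 60.0% and 60.5% thinned, against 1.9% and 2.5% of fibroblast-like cells and 0 and 0.28% of B-like cells. Col16a1, which binds fibril surfaces, was at 460 and 415 CPM. Col12a1, its relative, was at 393 and 502 CPM, below the 637 CPM of smooth muscle- or pericyte-like cells in VApcMinL. The fibrillar Col27a1 was at 137 and 131 CPM, with an interval that met that of the next class in ApcMin and lay apart from it in VApcMinL. Col18a1 was at 278 and 472 CPM, below the 513 CPM of smooth muscle- or pericyte-like cells in ApcMin. Col28a1, which is known from glia of peripheral nerve, had 1 UMI in ApcMin and 32 UMIs in VApcMinL (4.42 and 28.9 CPM), a log2 ratio of 2.71 with an interval from 0.13 to 8.06. Col11a1 (9 and 72 UMIs), Col9a2 (9 and 40 UMIs) and Col9a3 (4 and 22 UMIs), known from cartilage, also had their highest class here in both libraries, at 39.8 and 65.1, 39.8 and 36.2, and 17.7 and 19.9 CPM, from 30 and 172 cells. The interval of Col9a3 met that of epithelial-like cells in ApcMin.

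Smooth muscle- or pericyte-like cells (median 7717 and 7898 UMIs) were the highest named class of Col6a1, Col6a2, Col6a4 and Col6a5 among the 6 type VI chains and of the second type IV network, although Col3a1, Col1a2 and Col1a1 were more abundant in this class in ApcMin. Col6a1 was at 1459 CPM (1366 to 1556) in ApcMin and 1703 CPM (1632 to 1776) in VApcMinL, and Col6a2 at 1421 and 1262. Col4a5 was at 354 and 257 CPM, Col4a6 at 109 and 72.8, and Col6a4 at 55.4 and 99.9. Each of these was highest in this class in both libraries, but Col6a1 and Col6a2 were highest in fibroblast-like cells in ApcMin after clustering at 1000 UMIs and in both libraries with collagens among the variable genes, where Col4a6 and Col6a4 were too. In that clustering Col4a5 was highest in mesothelial-like cells in ApcMin and fibroblast-like cells in VApcMinL, and at 1000 UMIs Col6a4 was highest in fibroblast-like cells in VApcMinL. Col6a5 was at 223 and 128 CPM, with an interval that met that of fibroblast-like cells (121 CPM) in VApcMinL, and it was highest in fibroblast-like cells in both libraries at 1000 UMIs and with collagens among the variable genes, and in VApcMinL without integration. With each barcode classed by its own markers Col6a1, Col6a2 and Col4a5 were highest in fibroblast-like cells in ApcMin. The class went against its name in part. Pdgfra, a fibroblast marker, was at 1226 and 2170 CPM, above 544 and 531 CPM in fibroblast-like cells, and 32 of 70 and 81 of 143 barcodes had a Pdgfra UMI. Bmp5, on the marker list used here for subepithelial fibroblasts high in Pdgfra, was among its leading genes beside the muscle genes Myh11, Acta2, Tagln and Actg2. Within the class, Col4a5 was at 549 and 391 CPM in barcodes with a Pdgfra UMI and at 29.6 and 8.86 CPM in those without. Col6a1 was at 2184 and 2440 CPM in barcodes with a Pdgfra UMI and at 245 and 332 CPM in those without, the latter below the 1160 and 1164 CPM of fibroblast-like cells, and Col6a2 at 2177 and 1832 against 156 and 199 CPM. Col12a1 followed the same split at 559 and 941 against 33.8 and 70.9 CPM, and Col23a1 at 101 and 382 against 8.46 and 26.6 CPM. Col4a1 did not, at 809 and 1163 against 1260 and 1059 CPM. The barcodes with a Pdgfra UMI were also deeper, with medians of 12006.5 and 9082 UMIs against 5408.5 and 6002, and the part of depth in this split was not tested.

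The remaining stromal populations were small or unnamed. Mesothelial-like cells (7 and 34 cells) had the highest levels among the named classes of Col4a4 (65.3 and 56.8 CPM) and of Col8a2 (8.16 and 10.6 CPM), with intervals that met those of the next class. Col8a2, a net-forming chain, was at 20.5 and 25.8 CPM in the Scg2 cluster. The cluster led by Scg2 had Col3a1 at 2446 and 1818 CPM, Col6a3 at 1116 and 718 CPM, and Col13a1 at 92 and 98.4 CPM. Col25a1, a membrane-spanning collagen, had 53 of its 62 UMIs in this cluster in ApcMin. In VApcMinL it had 20 of 62 UMIs there and 35 in fibroblast-like cells, of which 21 lay in the Wif1 cluster described below. In immune, erythroid and epithelial-like classes Col3a1 lay between 19.7 and 609 CPM. Empty droplets, at 1201 and 1268 CPM, give the level in free RNA alone, whose share in these classes was not estimated. Barcodes with a Pdgfra UMI held 90.7% and 91.7% of fibrillar UMIs in myeloid-like, 86.6% and 94.1% in T- or innate lymphoid-like and 91.2% and 86.6% in epithelial-like cells. They held 28.4% and 47.2% in B-like, 56.4% and 58.6% in plasma-like and 2.43% and 2.94% in erythroid-like cells. Col9a3 had 33 UMIs in 4 of 48 epithelial-like cells of ApcMin and 6 UMIs in 4 of 347 cells of VApcMinL.

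The fibroblast-like cells fell into 6 clusters, each named here by one of its leading genes, and collagen levels differed between them although no collagen was used for clustering. The Pi16 cluster held 38.5% (ApcMin) and 23.6% (VApcMinL) of these cells, the Penk cluster 27.9% and 20.5%, the Grem1 cluster 16.9% and 20.0%, and the Ereg cluster, in which Cxcl13 ranked above Ereg, 12.6% and 23.7%. The Mmp10 cluster, which also had Fgfr2 and Lrat among its leading genes, held 3.08% and 8.84% (97 and 306 cells), and the Wif1 cluster, with Notum, 0.954% and 3.38% (30 and 117 cells). Collagens took the largest share of UMIs in the Grem1 cluster, at 3.34% and 2.93%, and the lowest in the Pi16 cluster of ApcMin (1.56%) and the Penk cluster of VApcMinL (1.37%). Of 28 members with at least 200 UMIs over the clusters, 20 had the same highest cluster in both libraries, and for 15 of these its interval lay apart from the next in both.

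**Figure D3:**
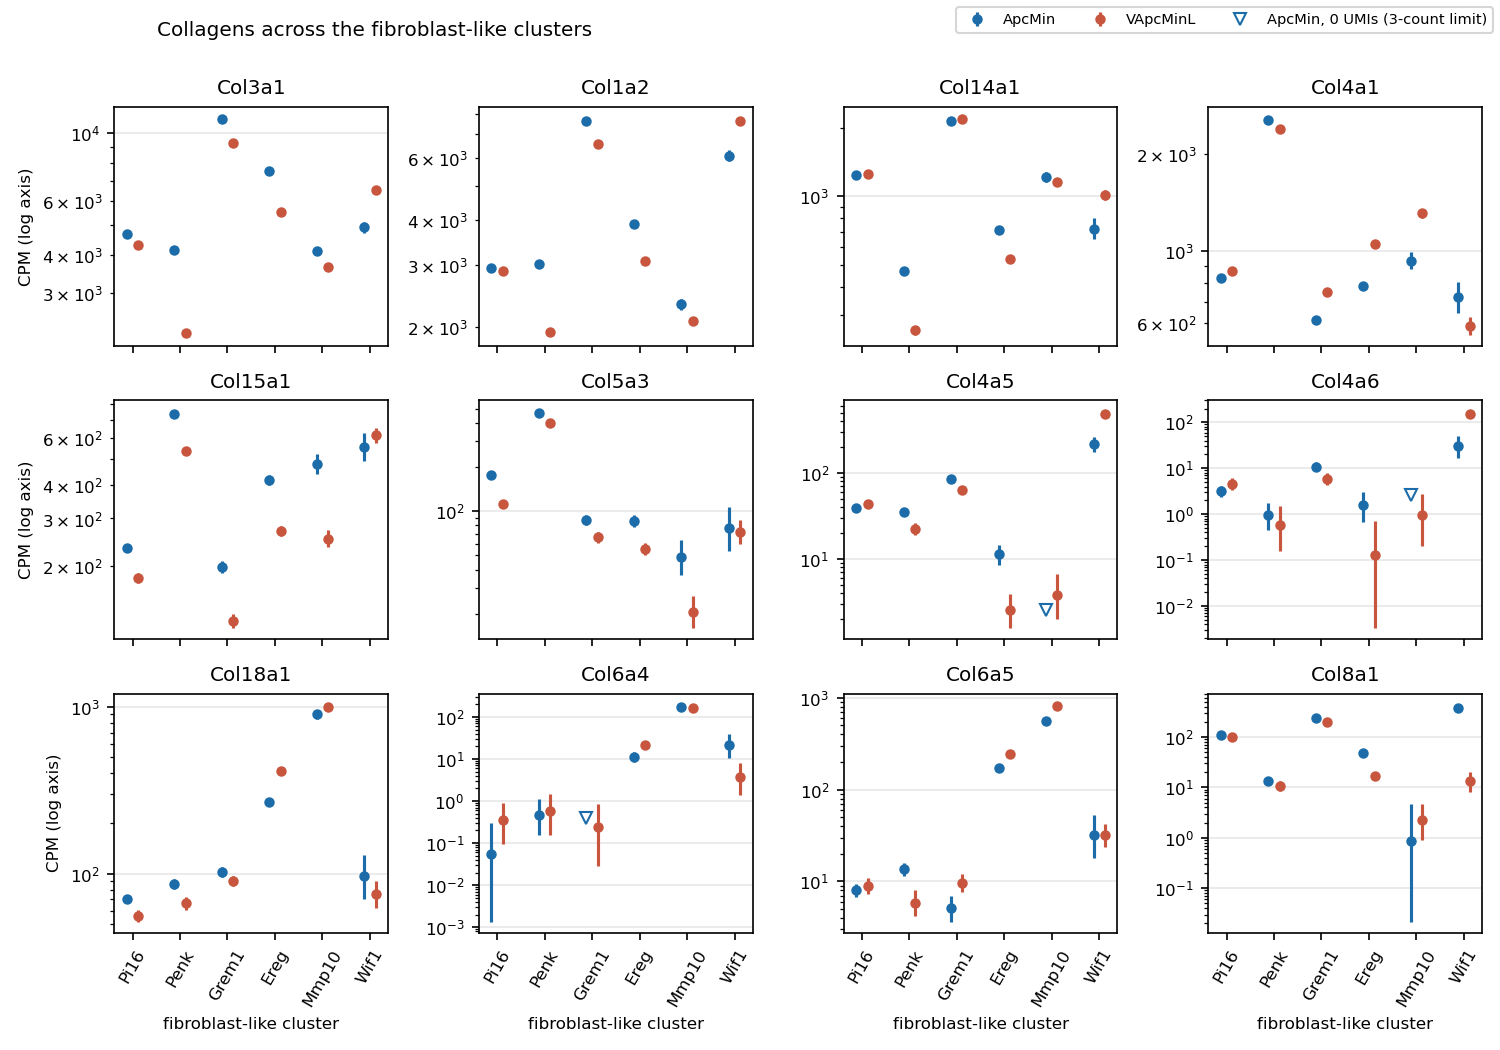
Levels of 12 collagens (CPM, log axis, bars are exact 95% intervals of counting error) in the 6 fibroblast-like clusters, each named by one of its leading genes, in ApcMin (blue) and VApcMinL (red), with an open triangle at the limit of 3 counts where ApcMin had 0 UMIs. Col4a1 is highest in the Penk cluster (2553 and 2395 CPM), Col3a1 in the Grem1 cluster (11149 and 9292 CPM), Col6a4 in the Mmp10 cluster (172 and 160 CPM) and Col4a6 in the Wif1 cluster of VApcMinL (155 CPM).

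The Grem1 cluster had the highest Col3a1, Col1a1, Col5a2 and Col14a1. Col3a1 was at 11149 CPM in ApcMin and 9292 CPM in VApcMinL, against 4145 and 2222 CPM in the Penk cluster. Col1a1 was at 6605 and 6066 CPM, and Col5a2, a chain that sets fibril width, was at 678 and 613 CPM. Col14a1, which coats fibrils, was at 2142 and 2188 CPM against 469 and 257 in the Penk cluster. Col8a1, a net-forming chain, was at 241 and 200 CPM in the Grem1 cluster and at 13.2 and 10.9 CPM in the Penk cluster.

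The Penk cluster carried the type IV network instead. Col4a1 was at 2553 and 2395 CPM there and between 588 and 1311 CPM in the other clusters, and Col4a2 at 996 and 1087. The third chain of this set was fibrillar, Col5a3, at 470 CPM (457 to 483) in ApcMin and 402 CPM (387 to 417) in VApcMinL, against 176 and 113 in the Pi16 cluster and 48.8 and 20.6 in the Mmp10 cluster. The Penk cluster gave 52.8% and 52.9% of its fibroblast-like UMIs. Basement membrane collagens made up 0.450% and 0.420% of UMIs in the Penk cluster, which exceeded the share in blood endothelial-like cells.

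The Mmp10 cluster was set apart by type VI chains and Col18a1. Col6a4 was at 172 CPM (149 to 197) in ApcMin and 160 CPM (146 to 175) in VApcMinL, and this cluster alone held 73.4% and 73.5% of the Col6a4 UMIs of fibroblast-like cells. Col6a5 was at 559 and 816 CPM, with the Ereg cluster next at 171 and 247, and Col18a1 was at 901 and 997 CPM, with the Ereg cluster next at 269 and 411. Col6a1 reached 2139 and 2155 CPM. Col22a1, a collagen of tissue junctions, had 38 and 94 UMIs in this cluster (32.5 and 30.2 CPM), which were 90.5% and 75.2% of its fibroblast-like UMIs. Col4a5 and Col4a6 had 0 UMIs in this cluster in ApcMin, which allows up to 2.57 CPM (the limit of 3 counts used here for 0 UMIs), and 12 and 3 UMIs in VApcMinL.

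The Wif1 cluster had the highest levels of the minor type IV chains. Col4a3 was at 61.9 and 66.1 CPM and Col4a4 at 107 and 88.5, without a difference between libraries beyond counting error. Col4a5 was at 214 CPM (174 to 260) in ApcMin and 484 CPM (450 to 519) in VApcMinL, and Col4a6 at 29.9 (16.4 to 50.2) and 155 (136 to 176). It held 5.26% and 39.3% of the fibroblast-like Col4a5 UMIs and 8.09% and 69.6% of those of Col4a6, while the Grem1 and Pi16 clusters held 47.4% and 34.1% of the Col4a6 UMIs in ApcMin. The levels of Col4a5 and Col4a6 in this cluster were thus higher in VApcMinL, and the share of cells with a Col4a6 UMI was 23.3% (9.93 to 42.3%) and 73.5% (64.5 to 81.2%). Col7a1, the anchoring fibril collagen, had 4 and 92 UMIs (8.54 and 57.3 CPM), and in VApcMinL this cluster of 117 cells held 74.2% of the fibroblast-like Col7a1 UMIs. Col8a1 went the other way, with 179 UMIs in ApcMin (382 CPM), all in 9 of 30 cells, and 21 UMIs in VApcMinL (13.1 CPM).

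Between the libraries, the collagen groups of fibroblast-like cells differed little. The log2 ratio of VApcMinL over ApcMin was -0.09 for fibrillar, 0.02 for basement membrane and -0.10 for other collagens. A gene was counted as past the fold when it had at least 200 UMIs in a class and differed by at least 1.5-fold, a description of these 2 libraries and not a test. Of 28 collagens counted in fibroblast-like cells, 5 were higher in VApcMinL, where 6.28% of all 11535 genes were, and 1 was lower, where 3.55% were. The median log2 ratio of the 28 was -0.03. Marker lists of other cell types also differed within this class, since the 13 epithelial markers summed to 22.0 CPM in ApcMin and 187 CPM in VApcMinL, the 10 blood endothelial markers to 31.6 and 119 CPM, the 6 adipocyte markers, of which Cfd was also a leading gene of the Pi16 cluster, to 2.09 and 242 CPM, and the 8 erythroid markers to 17140 and 3063 CPM, with UMIs of every marker in both libraries except for 1 adipocyte marker in ApcMin. Their part in the collagen values was not tested. None of the most abundant chains passed the fold, with Col3a1 at -0.18, Col1a2 at -0.09, Col1a1 at 0.13, Col4a1 at -0.04, Col6a1 at 0.01 and Col14a1 at -0.03. Col6a3 was at -0.50, Col15a1 at -0.49 and Col6a2 at -0.23.

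Each of the 5 higher members had its highest level in the Mmp10 or the Wif1 cluster. Col6a5 was at 43.0 CPM in ApcMin and 121 CPM in VApcMinL, a log2 ratio of 1.5 (1.42 to 1.57). Col6a4 was at 6.28 and 17.4 CPM (log2 ratio 1.47), Col4a6 at 3.97 and 9.20 CPM (1.21), Col13a1 at 3.0 and 6.89 CPM (1.20) and Col18a1 at 126 and 212 CPM (0.75). Col5a3, highest in the Penk cluster, was the lower member, at 217 and 133 CPM, a log2 ratio of -0.71 (-0.76 to -0.66). The share of cells in the Mmp10 and Wif1 clusters differed between the libraries in the same direction, as given above. With every cluster given the same weight in both libraries, an alternative chosen after seeing the data, the log2 ratio was 0.48 for Col6a5, 0.08 for Col6a4, 0.36 for Col13a1, 0.13 for Col18a1 and -0.40 for Col5a3, and Col4a6 alone stayed past the fold at 0.64. That of Col13a1 was 0.32, inside the fold, at 1000 UMIs with new clusters. Col18a1 lay inside the fold under 3 of 17 alternatives, among them at 0.46 without the Mmp10 cluster. The log2 ratio of Col4a6 turned to -0.33 without the Wif1 cluster, to -0.051 at 1000 UMIs with new clusters and to -0.50 without integration.

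**Figure D4:**
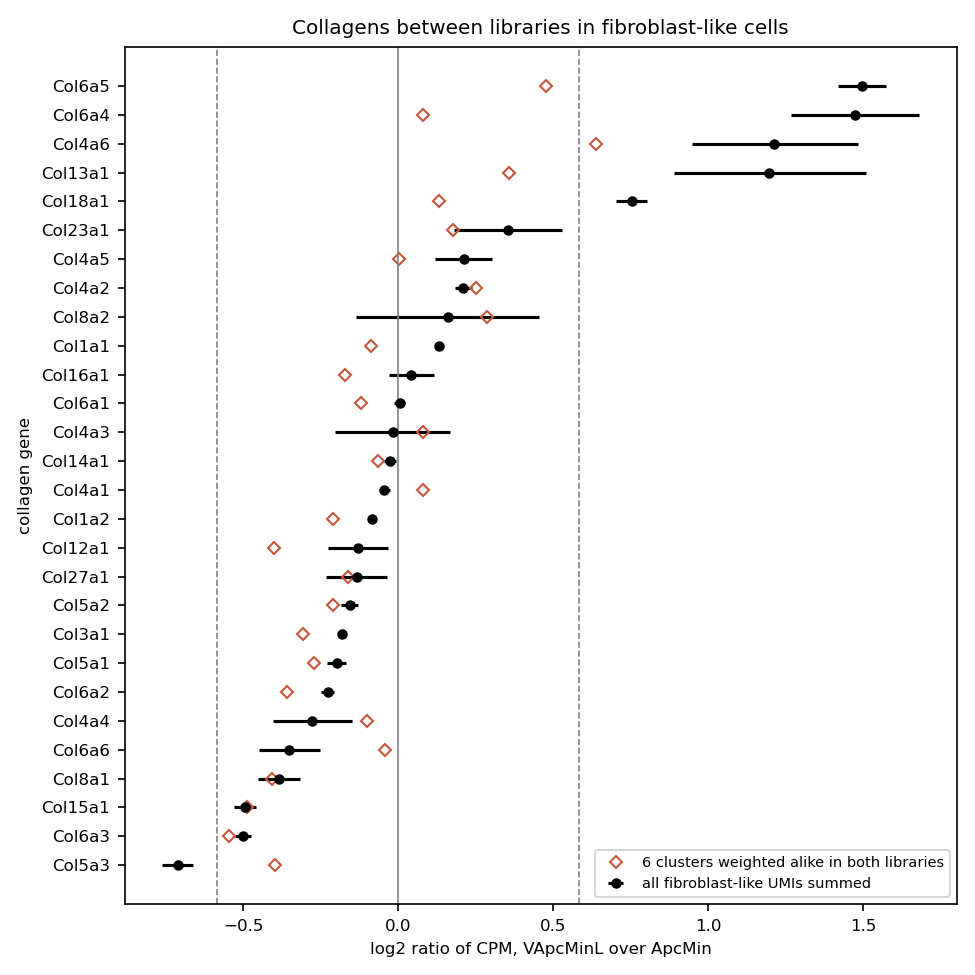
Log2 ratio of CPM, VApcMinL over ApcMin (horizontal axis), for the 28 collagens counted in fibroblast-like cells, as black points with exact 95% intervals of counting error and as red diamonds with the 6 clusters weighted alike (dashed lines mark 1.5-fold). Col6a5 lies at 1.5 and, at equal weights, at 0.48, and Col5a3 at -0.71 and -0.40.

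Within 5 of the 6 clusters more members were lower than higher past the fold in VApcMinL, and in the Wif1 cluster the counts were equal. In the Pi16 cluster 0 of 23 were higher (4.09% of all genes counted there were) and 4 lower (3.52%), namely Col12a1 (-0.68), Col6a6 (-0.67), Col5a3 (-0.64) and Col6a3 (-0.60). With every cell thinned to 3000 UMIs, 3 of these 4 lay inside the fold, Col6a6 at -0.22, Col5a3 at -0.36 and Col6a3 at -0.57. In the Penk cluster 0 of 23 were higher (2.91%) and 5 lower (3.0%), which were Col3a1 (-0.90), Col14a1 (-0.87), Col4a5 (-0.65), Col1a2 (-0.64) and Col6a3 (-0.59). Without the highest Scrublet scores Col6a3 in this cluster was at -0.58, just inside the fold. Fibrillar collagens as a group had a log2 ratio of -0.68 in the Penk cluster, the lowest of the 6. The Grem1 cluster had 0 of 19 higher (2.9%) and 1 lower (2.53%), Col15a1 at -0.67. The Mmp10 cluster had 0 of 18 higher (4.84%) and 1 lower (2.73%), again Col15a1, at -0.92. Col15a1 was the only member lower past the fold in both of these clusters.

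In the Ereg cluster 2 of 21 were higher (4.81%), Col18a1 at 0.62 and Col6a4 at 0.92, and 3 lower (3.19%), Col8a1 at -1.53, Col5a3 at -0.65 and Col15a1 at -0.64. Thinned to 3000 UMIs, both higher members lay inside the fold, Col18a1 at 0.37 and Col6a4 at 0.23, as did Col5a3 at -0.36. In the Wif1 cluster 3 of 17 were higher (16.3%), Col4a6 at 2.38 (1.60 to 3.27), Col4a5 at 1.18 and Col1a1 at 0.77, and 3 lower (8.92%), Col8a1 at -4.87, Col6a3 at -0.92 and Col6a6 at -0.77. Col6a3 turned to 0.024 in this cluster when thinned. Col1a1 was at 3101 and 5304 CPM there, and the fibrillar group had a log2 ratio of 0.44, the only positive one of the 6 clusters. The ApcMin side of the Wif1 cluster rests on 30 cells. The log2 ratio of Col8a1 in it was -2.85 once the 1% of barcodes with the fewest and the most detected genes was left out.

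In blood endothelial-, lymphatic endothelial-, enteric glia-, mesothelial- and smooth muscle- or pericyte-like cells and in the Scg2 cluster the share of fibrillar UMIs was lower in VApcMinL, while that of basement membrane collagens differed by less than 1.5-fold. The log2 ratio of basement membrane collagens moved with the processing in mesothelial-like cells, from -0.11 to 0.96 when thinned to 3000 UMIs, and in enteric glia-like cells, from -0.41 to -0.60 at 6000 UMIs and 0.50 without Pdgfra barcodes. In blood endothelial-like cells 0 of 12 members were higher (6.39%) and 8 lower (4.04%). Col3a1 was at 1245 CPM in ApcMin and 297 CPM in VApcMinL (-2.07), Col6a3 at 159 and 41.6 (-1.94), Col6a2 at 204 and 55.7 (-1.88), and Col1a2 at 723 and 243 (-1.57). The other 4, with log2 ratios from -1.21 to -1.05, were Col1a1, Col6a1, Col5a2 and Col14a1. The fibroblast markers moved with these members, since the 10 markers of the fibroblast list, all of them with UMIs in both libraries, summed to 7496 CPM in blood endothelial-like cells of ApcMin and 2278 CPM in VApcMinL, against 42401 and 38317 in fibroblast-like cells. Dcn, the most abundant of them, was at 3287 and 1051 CPM in blood endothelial-like cells. Other lists differed in this class in both directions. The pericyte list summed to 296 and 991 CPM and the epithelial list to 18.8 and 281 CPM. The adipocyte list summed to 271 and 6.33 CPM and the erythroid list to 59199 and 26615 CPM. The part of these lists in the collagen values was not tested.

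A few barcodes carried most of the fibrillar UMIs of blood endothelial-like cells. Of the Col3a1 UMIs of blood endothelial-like cells, 91.5% (ApcMin) and 64.2% (VApcMinL) lay in 10 cells, and the 17 of 125 and 53 of 485 barcodes with a Pdgfra UMI held 97.6% and 82.9% of the fibrillar UMIs of the class. In the remaining barcodes fibrillar collagens were 0.00851% and 0.0161% of UMIs, near the 0.0101% and 0.0153% of B-like cells without a Pdgfra UMI, and basement membrane collagens were 0.332% and 0.291%. The log2 ratio of Col3a1 was then 1.14. The barcodes with a Pdgfra UMI were also deeper, with medians of 16367 and 6957 UMIs against 5749.5 and 4946. The part of depth in this split was not tested. Scrublet, a doublet caller, put 21 of 125 and 29 of 485 blood endothelial-like barcodes among its highest scores. Without the highest scores the log2 ratios of the 8 members given as lower were all above 0, from 1.39 for Col14a1 to 2.59 for Col3a1. Lymphatic endothelial-like cells showed the same split, with 4 and 12 Pdgfra barcodes holding 95.8% and 82.3% of fibrillar UMIs and 0.00899% and 0.0200% left in the others, where the log2 ratio was 0.83 for Col3a1 and 1.36 for Col1a1. Their Pdgfra barcodes were deeper too, with medians of 21915 and 11851 UMIs against 8350 and 6340.

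**Figure D5:**
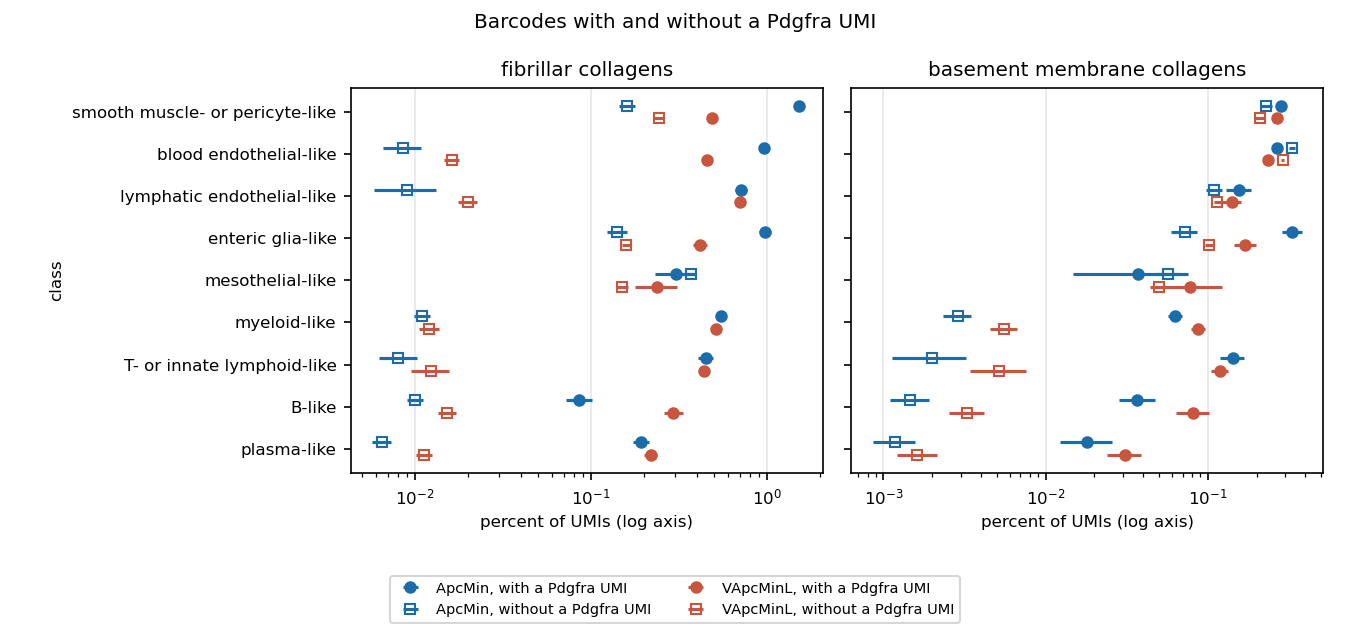
Share of UMIs (percent, horizontal log axis, bars are exact 95% intervals of counting error) from fibrillar and basement membrane collagens in barcodes with and without a Pdgfra UMI, by class and library. In blood endothelial-like barcodes without a Pdgfra UMI the fibrillar share is 0.00851% and 0.0161% and the basement membrane share 0.332% and 0.291%.

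In lymphatic endothelial-like cells 0 of 8 members were higher (6.71%) and 2 lower (4.05%), Col3a1 at 705 and 353 CPM (-1.0) and Col1a1 at 406 and 250 CPM (-0.70). Neither was past the fold in the same direction without the highest Scrublet scores. Enteric glia-like cells had 1 of 13 higher (6.64%), Col18a1 at 278 and 472 CPM (0.76), and 6 lower (6.33%), which were Col3a1 (-1.60), Col1a1 (-1.55), Col1a2 (-1.22), Col6a1 (-0.98), Col4a1 (-0.79) and Col5a2 (-0.74). In glia the Pdgfra barcodes were 4 of 30 and 8 of 172 and held 72.4% and 21.1% of fibrillar UMIs, and the other barcodes kept 0.140% and 0.158%, above B-like cells. In those other barcodes the log2 ratio was 0.57 for Col4a1, 0.67 for Col1a2 and 0.21 for Col3a1, against the lower values of the whole class. The other 3 members given as lower stayed below 0 there but inside the fold, with Col1a1 at -0.22, Col6a1 at -0.29 and Col5a2 at -0.24. The Pdgfra barcodes of glia were deeper, with medians of 15092.5 and 12934.5 UMIs against 5891.5 and 5493. The part of depth was not tested. Col18a1 in glia lay inside the fold under 4 of 15 alternatives, at the lowest 0.41 at 1000 UMIs. The fibroblast list summed to 12213 and 4072 CPM in glia and to 6820 and 3256 CPM in lymphatic endothelial-like cells, and its part in the lower fibrillar values was not tested. In glia the erythroid list summed to 1838 and 23927 CPM, the plasma list to 2660 and 12524, and the epithelial list to 35.3 and 313. Other lists were lower in VApcMinL, such as the T or innate lymphoid list (287 and 119 CPM) and the mast list (66.3 and 0.90 CPM). The part of these lists was not tested either.

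Mesothelial-like cells had 0 of 6 higher (7.81%) and 6 lower (11.9%), from Col3a1 at 1926 and 697 CPM (-1.47) to Col6a1 at 881 and 564 CPM (-0.64), on 7 ApcMin cells. Thinned to 3000 UMIs Col6a1 was at -0.16, inside the fold, and Col14a1 turned from -1.16 to 0.19 with 1% of barcodes trimmed. Smooth muscle- or pericyte-like cells had 2 of 15 higher (10.2%), Col23a1 at 66.4 and 258 CPM (1.96) and Col12a1 at 362 and 637 CPM (0.81), and 7 lower (7.65%). The lower ones were Col3a1 at 4202 and 1243 CPM (-1.76), Col1a1 (-1.28), Col1a2 (-1.08), Col5a2 (-0.99), Col5a1 (-0.97), Col6a5 (-0.80) and Col18a1 (-0.64). Barcodes with a Pdgfra UMI held 94.1% and 79.0% of the fibrillar UMIs of this class, at 1.53% and 0.489% of their UMIs, and barcodes without one had 0.161% and 0.242%. The fibroblast list summed to 9083 and 10754 CPM in this class and to 18030 and 15002 CPM in mesothelial-like cells. The fibrillar difference of the smooth muscle- or pericyte-like class lay in the barcodes with a Pdgfra UMI and had the opposite direction in the others. At 1000 UMIs with new clusters the log2 ratio of this class turned to 0.68 for fibrillar collagens, with Col3a1 at 0.64, Col1a1 at 1.02, Col1a2 at 0.62, Col5a1 at 0.18 and Col5a2 at 0.055, and to -0.89 for Col12a1, 0.18 for Col6a5 and 0.062 for Col18a1. The fibrillar group was also at 0.13 without integration and at 0.080 with each barcode classed by its own markers.

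Chains that assemble together were compared by the ratio of their UMIs in the same cells. Col4a1 over Col4a2 was 2.35 in ApcMin and 1.97 in VApcMinL in fibroblast-like cells, 1.73 and 1.68 in blood endothelial-like cells and 1.82 and 1.78 in smooth muscle- or pericyte-like cells. Over the 6 fibroblast-like clusters it lay between 1.66 and 2.57 while the level of Col4a1 itself ranged from 588 to 2553 CPM. The Pi16 (2.57 and 2.22) and Penk (2.56 and 2.20) clusters were the higher ones in both libraries. Col4a5 over Col4a6 varied more, from 3.12 in the Wif1 cluster of VApcMinL to 37.8 in the Penk cluster of VApcMinL, where Col4a6 had 4 UMIs. It was 11.0 and 5.51 in all fibroblast-like cells and 3.25 and 3.53 in smooth muscle- or pericyte-like cells.

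Col1a1 over Col1a2 was 0.68 in ApcMin and 0.79 in VApcMinL in fibroblast-like cells and higher in VApcMinL in each of the 6 clusters, from 0.45 and 0.50 in the Penk cluster to 0.87 and 0.92 in the Grem1 cluster. It was higher in VApcMinL in blood endothelial-like cells too, at 0.57 and 0.73, where most fibrillar UMIs lay in the 17 and 53 barcodes with a Pdgfra UMI, and lower in smooth muscle- or pericyte-like (0.85 and 0.74), lymphatic endothelial-like (1.16 and 0.83), enteric glia-like (0.54 and 0.43) and mesothelial-like cells (0.50 and 0.40), with overlapping intervals in all of these classes except the blood endothelial-like. Col6a3 over Col6a1 was lower in VApcMinL, at 0.62 and 0.44 in fibroblast-like cells, 0.71 and 0.52 in the Grem1 cluster, 0.40 and 0.16 in the Wif1 cluster and 0.42 and 0.26 in smooth muscle- or pericyte-like cells. In the barcodes of that class without a Pdgfra UMI it was 0.41 and 0.54, with intervals that overlapped. Col6a1 over Col6a2 was 1.25 and 1.47. Col5a1 over Col5a2, the chains of type V collagen, was 0.85 and 0.82.

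Genes that modify, fold, process, cross-link or bind collagens were counted in the same fibroblast-like cells. Of 81 listed genes, 71 had at least 200 UMIs, and 4 were higher (6.28% of all genes were) and 5 lower (3.55%) in VApcMinL, with a median log2 ratio of -0.21. Among chaperones and secretion factors 2 of 10 were lower, Serpinh1, the collagen chaperone of the endoplasmic reticulum, at 1059 CPM in ApcMin and 644 CPM in VApcMinL (-0.72), and Creb3l1, a regulator of secretion genes, at 112 and 65.9 CPM (-0.76), and 1 was higher, the ion channel Tmem38b at 27.6 and 46.9 CPM (0.76). Serpinh1 was lower in VApcMinL in each of the 6 clusters, with log2 ratios from -0.93 in the Ereg cluster to -0.30 in the Wif1 cluster, and past the fold in 5 of them. It was also lower in the Scg2 cluster, at 739 and 481 CPM. Creb3l1 was lower past the fold in the Pi16 (-0.83), Penk (-0.71), Grem1 (-0.93) and Ereg (-0.59) clusters.

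Among the 13 hydroxylation and glycosylation genes counted of 15, only P4ha2, a prolyl hydroxylase subunit, passed the fold, at 52.7 and 33.0 CPM (-0.68), and the most abundant, Ppib, was at 556 and 553 CPM. Of 6 propeptide processing genes counted of 7, Pcolce2 was lower, at 340 and 203 CPM (-0.74), and the procollagen protease Adamts3 higher, at 2.59 and 4.66 CPM (0.85), while Pcolce was at 633 and 450 CPM. None of the 7 cross-linking genes passed the fold, the most abundant being Loxl1 at 311 and 211 CPM (-0.56). Of 13 fibril-associated genes 1 was lower, fibronectin Fn1 at 1068 and 682 CPM (-0.65), and Dcn was at 20100 and 18482 CPM. By cluster Fn1 was at 1908 and 1109 CPM in the Pi16 cluster and at 240 and 263 CPM in the Grem1 cluster.

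Of 12 basement membrane partners counted of 15, 2 were higher, the laminin chains Lama1 at 3.69 and 11.4 CPM (1.63) and Lamc3 at 7.43 and 12 CPM (0.69), and the most abundant, Nid1, was at 924 and 652 CPM (-0.50). Lama1 was at 45.3 and 67.5 CPM in the Mmp10 cluster and 17.2 and 27.3 CPM in the Ereg cluster. None of 10 receptor genes counted of 14 passed the fold, with Itgb1 at 534 and 566 CPM. For the 11 genes induced by tissue dissociation, 0 were higher and 0 lower in fibroblast-like cells, and Egr1 was at 4995 and 5280 CPM. Within clusters, 5 of the 11 were higher in VApcMinL in the Ereg (4.81% of all genes were) and in the Wif1 cluster (16.3%), 3 in the Mmp10 (4.84%) and 2 in the Penk cluster (2.91%), and 0 in the Pi16 (4.09%) and Grem1 (2.9%) clusters, and their part in the collagen values was not tested.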

How the data were processed

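The deposited files held raw UMI counts per gene and barcode, which the authors had made from 10x Genomics 3′ version 3 libraries sequenced on a NovaSeq 6000. Per the labels the processing used Cell Ranger 2.1.1 and Seurat 3.1.1 with the mm10 (GRCm38) reference, while the header of the count files names release 3.1.0, so the release is unsettled. The matrices held all barcodes with no cell annotation.

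Barcodes with at least 3000 UMIs and at most 20% mitochondrial UMIs were kept. The libraries were integrated by canonical correlation analysis in Seurat 5.3.0 (R 4.3.3) after the parameters of the study's methods (20 principal components, 20 neighbours, Louvain resolution 0.2), with collagens left out of the variable genes, and fibroblast-like clusters were taken at resolution 0.5. A cluster was named when at least 3 of its 10 leading genes by fold (pseudocount 0.1) were markers of 1 class, or else by the largest difference in marker detection (at least 0.05 above the next class, the next under 0.4, at least 3 markers in 25% of cells). The lists held 187 marker genes for 20 classes, and this naming rule was settled after the clusters were seen. Doublets were not removed. The highest Scrublet scores (scanpy 1.11.5, 0.8% per 1000 barcodes) were left out as an alternative. Empty droplets were barcodes of rank 45000 to 90000.

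For each class of each library UMIs were added up and scaled to CPM of the class total, with exact Poisson intervals for levels, exact conditional binomial intervals for ratios and Clopper-Pearson intervals for shares of cells (all 95%), in Python 3.11.15 with numpy 2.4.6, scipy 1.17.1 and pandas 2.3.3, and figures in matplotlib 3.10.9. These intervals cover counting error only. The scripts were tested on simulated data. Each genotype had 1 library, so no p-value was computed, and a gene was past the fold at 1.5-fold with at least 200 UMIs in a class over both libraries. Named were, per class, collagens at 100 CPM or, if fewer, the 5 highest above free RNA, those past the fold, and chains of ratio pairs. Not every collagen at 100 CPM was given with its level in each class. In fibroblast-like cells the class levels of Col5a1, Col5a2, Col6a2 and Col14a1 were among those not printed. Of 81 partner genes in 7 lists, those past the fold and the highest of each list were named. Promoters came from RefSeq. The members, lists and rules were chosen with earlier results of these data known.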

Additional observations from a re-analysis of the deposited data

Results flagged for a closer look

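Some collagens were past 1.5-fold in opposite directions in different classes. Whether these classes differ was not tested, since each genotype had 1 library. The log2 ratio of VApcMinL over ApcMin for Col18a1 was 0.75 in fibroblast-like cells, 0.62 in the Ereg cluster and 0.76 in enteric glia-like cells, and -0.64 in smooth muscle- or pericyte-like cells. Col6a5 was at 1.5 in fibroblast-like and -0.80 in smooth muscle- or pericyte-like cells. For Col12a1 it was 0.81 in smooth muscle- or pericyte-like cells and -0.68 in the Pi16 cluster. Col4a5 was at 1.18 in the Wif1 cluster and -0.65 in the Penk cluster. Col1a1 was at 0.77 in the Wif1 cluster, against -1.21 in blood endothelial-like, -1.55 in enteric glia-like, -0.70 in lymphatic endothelial-like, -1.31 in mesothelial-like and -1.28 in smooth muscle- or pericyte-like cells. Several of these directions turned with the processing. In smooth muscle- or pericyte-like cells Col6a5 was at 0.18 at 1000 UMIs and 1.78 by own markers, Col18a1 at 0.062 and 1.25 in the same order and 0.79 without Pdgfra barcodes, Col12a1 at -0.89 at 1000 UMIs, and Col1a1 between 0.38 and 1.02 under 5 alternatives. Col1a1 was at 2.54 without the highest Scrublet scores and 0.52 without Pdgfra barcodes in blood endothelial-like cells, and at 1.36 without Pdgfra barcodes in lymphatic endothelial-like cells. In the smooth muscle- or pericyte-like class the barcodes with a Pdgfra UMI held 94.1% (ApcMin) and 79.0% (VApcMinL) of the fibrillar UMIs, and the Wif1 cluster had 30 ApcMin cells.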

How the results depend on the processing

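No paired analysis was possible because there was 1 library of each genotype. The group values of fibroblast-like cells moved within a narrow range. In the order fibrillar, basement membrane and other collagens, the log2 ratios (main values -0.09, 0.02 and -0.10) were -0.10, 0.0035 and -0.11 at 6000 UMIs, -0.23, 0.043 and -0.21 with the 6 clusters weighted alike, and -0.066, -0.027 and -0.17 without the Mmp10 cluster. For fibrillar and other collagens they were -0.17 and -0.12 at 1000 UMIs with new clusters, -0.14 and -0.12 without integration, -0.12 and -0.0889 with collagens among the variable genes, -0.12 and -0.086 thinned to 3000 UMIs, -0.11 and -0.11 without hemoglobin, immunoglobulin, mitochondrial and Gm42418 UMIs, and -0.13 and -0.12 without the Wif1 cluster. Fibrillar collagens were at -0.13 with the mean of per-barcode CPM. Basement membrane collagens were at 0.0023 without the highest Scrublet scores, 0.041 with type IV chains alone and -0.076 with each barcode classed by its own markers, where other collagens were at -0.15. The counts of 5 higher and 1 lower collagen were 3 and 2 by own markers and 1 and 0 at equal weights, 0 were lower at 2-fold and 9 higher at a minimum of 50 UMIs. Equal weights, the classes without Pdgfra barcodes or without barcode sequences found in both libraries, and the fits without the Wif1 or Mmp10 cluster were chosen after seeing the data.

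Reversals also came without the highest Scrublet scores or the Pdgfra barcodes. In blood endothelial-like cells the log2 ratios without the highest Scrublet scores and without Pdgfra barcodes were 2.35 and 0.92 for fibrillar and 0.40 and 0.20 for other collagens, 2.59 and 1.14 for Col3a1, 2.02 and 1.10 for Col5a2, 1.76 and 1.41 for Col6a3, 2.23 and 0.76 for Col1a2, 1.95 and 1.04 for Col6a2, 2.50 and 1.02 for Col6a1, and 2.54 and 0.52 for Col1a1, with Col14a1 at 1.39 without the Scrublet scores. In lymphatic endothelial-like cells they were 0.56 and 1.15 for fibrillar collagens and 0.20 and 0.83 for Col3a1, with Col1a1 at 1.36 without Pdgfra barcodes. In enteric glia-like cells without Pdgfra barcodes fibrillar collagens were at 0.17, Col3a1 at 0.21, Col1a2 at 0.67 and Col4a1 at 0.57. Mesothelial-like Col14a1 was at 0.19 with 1% of barcodes trimmed.

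In smooth muscle- or pericyte-like cells reversals came with several settings. At 1000 UMIs fibrillar collagens were at 0.68, Col3a1 at 0.64, Col5a2 at 0.055, Col5a1 at 0.18, Col1a2 at 0.62, Col18a1 at 0.062, Col12a1 at -0.89, Col6a5 at 0.18 and Col1a1 at 1.02. Without integration fibrillar collagens were at 0.13, Col1a2 at 0.30 and Col1a1 at 0.40, and with collagens among the variable genes Col5a1 was at 0.72 and Col1a1 at 0.40. By own markers fibrillar collagens were at 0.080, Col1a2 at 0.12, Col18a1 at 1.25, Col6a5 at 1.78 and Col1a1 at 0.38. Without Pdgfra barcodes fibrillar collagens were at 0.59, Col3a1 at 0.56, Col5a1 at 0.94, Col1a2 at 0.66, Col18a1 at 0.79 and Col1a1 at 0.96. In fibroblast-like cells Col4a6 was at -0.051 at 1000 UMIs, -0.50 without integration and -0.33 without the Wif1 cluster, and in the Wif1 cluster Col6a3 was at 0.024 when thinned. Of the alternative values for single collagens and for groups outside the whole fibroblast-like class, 58 were counted as reversed. Another 229 moved beyond the counting interval, and 869 stayed within it. Some sign changes of main values inside the fold were not counted as reversed. An example is basement membrane collagens in mesothelial-like cells, at -0.11 and, thinned to 3000 UMIs, at 0.96. Of the alternative values for the groups and counts of fibroblast-like cells, 32 moved and 58 did not. The cause of these reversals was not tested. Of the 28 ApcMin and 29 VApcMinL collagens compared, the highest class was the same for 25 and 28 at 6000 UMIs, 22 and 20 without integration, and 17 and 18 at 1000 UMIs. It was the same for 17 and 21 by own markers and 18 and 21 with collagens among the variable genes. The counts were 26 and 28 without the highest Scrublet scores, 27 and 27 at 10% mitochondrial UMIs, and 28 and 29 at resolution 0.5. The mesothelial-like (7 ApcMin cells), enteric glia-like (30) and Wif1 (30) values rest on few cells. The 14 members with fewer than 200 UMIs in all entered no count of members past the fold at the minimum of 200 UMIs.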
